A study of Mus musculus with 2 samples.

Results

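The Chad and Cilp2 cells are a small group of ear stromal cells in a single-cell RNA sequencing study of allergic skin inflammation in mice. They were chosen by their own reads: the cell barcode had to hold at most 20% mitochondrial reads and at least 200 genes, at least 100 CPM (reads per 1000000 reads of the cell) from Chad and Cilp2 together, and less than 50 CPM of Ptprc, the gene of the leukocyte surface protein CD45. Of 8953 barcodes in the matrix, 8359 were within the first limits, 379 passed the Chad and Cilp2 limit, 40 of those were removed by Ptprc, and 339 remained (4.06% of the cells within limits). Because reads of Chad, Cilp2 and Ptprc selected the cells, their levels are given as a description. The fits over all genes held them too, but their values in those fits are not used as results.

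The study asked how skin inflammation driven by IgE resolves, and compared wild-type (WT) BALB/c mice with Ccr2-/- BALB/c mice, which lack the chemokine receptor that brings classical monocytes into tissue. All mice were sensitized with an intravenous dose of IgE specific for the hapten TNP and were challenged on the following day with TNP-OVA injected into the ear skin. Ear cells were collected on day 3 or day 5, released by enzyme digestion, enriched on a density gradient and sequenced together. The first library held the messenger RNA of the cells and the second held DNA-barcoded antibody tags (hashtags) that mark the 4 pools. Values for the pools are given throughout in the order WT day 3, WT day 5, then Ccr2-/- day 3, Ccr2-/- day 5. There was 1 pool for each genotype and day, the number of mice in a pool is not given in the sources used here, and no uninflamed ear was among the 4 pools.

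The external ear of the mouse is a thin plate of elastic cartilage wrapped in perichondrium, a fibrous sheath that holds progenitors of cartilage, with dermis and epidermis on both faces. Cartilage owes its stiffness to collagen II fibrils and to the proteoglycan aggrecan, made by chondrocytes under the transcription factor SOX9, whereas tendon and ligament are built of collagen I bundles made by cells that use scleraxis. Chad encodes chondroadherin, a leucine-rich matrix protein that links collagen to integrins on the cell, and Cilp2 encodes a secreted matrix protein of cartilage and other load-bearing connective tissue. In the GRCm38 assembly Chad lies on chr11:94565047-94569127 (plus strand) and Cilp2 on chr8:69880369-69887687 (minus strand).

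The hashtags assigned 251 of the 339 cells to a pool, with 63, 21, 85 and 82 cells in the 4 pools. Of the others, 56 carried too few hashtag reads and 32 carried several hashtags, and 317 of the 339 barcodes were in the hashtag library. The cells held a median of 49508 reads (3129 to 476171) and 3449 genes, and their reads summed to between 1429487 (WT day 5) and 7033477 (Ccr2-/- day 3) per pool. WT day 5 was therefore the smallest and least precise pool. The groups set beside them came from the same barcodes. The other Pdgfra cells were 2459 cells with at least 50 CPM of the fibroblast receptor gene Pdgfra, below both limits for Chad with Cilp2 and for Ptprc (median 98875 reads), and the Ptprc cells were 3291 leukocyte barcodes (median 19717 reads). Ccr2 stood at 845, 711, 72.3 and 52.3 CPM in the Ptprc cells of the 4 pools, lower in both Ccr2-/- pools, and at 1.73, 1.40, 2.99 and 4.06 CPM in the Chad and Cilp2 cells.

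Chad was read at 1354, 1997, 764 and 759.6 CPM in the summed reads of the 4 pools and at 1.37, 0.413, 0.976 and 1.11 CPM in the other Pdgfra cells. Cilp2 was read at 698, 871, 564 and 441 CPM, against 0.942, 1.35, 1.10 and 1.07 CPM in the other Pdgfra cells. Both genes were read in 246 cells, Chad alone in 41 and Cilp2 alone in 52. The median cell held 67 reads of the pair and 1529 CPM, but 36 cells entered on fewer than 10 reads and 15 on 2 or fewer. The 20 cells just inside the limit (103 to 137 CPM) had medians of 354 CPM of Fmod, 115 CPM of Thbs4 and 192 CPM of Pdgfra. The 20 just outside (72.3 to 97.99 CPM) had medians of 2.67, 0 and 27.95 CPM of the same genes, and over all 339 cells the medians were 1834, 1342 and 25.6 CPM. The cells nearest the limit on the inside thus carried less Fmod and Thbs4 and more Pdgfra than the group as a whole.

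Besides the genes that chose them, the Chad and Cilp2 cells were rich in secreted matrix and signalling proteins that the other Pdgfra cells barely expressed. Cytl1, which encodes a small secreted protein of cartilage, had a summed level 635 times that of the other Pdgfra cells, and Cyp26a1, the enzyme that degrades retinoic acid, 129 times. Fibromodulin (Fmod), a collagen-binding proteoglycan that shapes fibrils, was 107 times as high, with 2276, 3208, 2464 and 2732 CPM in the 4 pools. Angptl7, which encodes an angiopoietin-like protein deposited in matrix, was 72.4 times as high, with 3689, 3717, 2782 and 2813 CPM. These levels overlapped in no pool with those of the other Pdgfra cells, and each varied by less than 1.5 times among the pools of the Chad and Cilp2 cells. The Wnt inhibitor Wif1 (61.3 times), the network collagen gene Col8a2 (71.2 times), Shisa2, whose product holds back Wnt and FGF receptors (116 times), and the chitinase-like protein gene Chil1 (48.8 times) followed. The 15 genes of highest ratio were completed by Tprg, Wfdc2, Scx, Crispld1 and Cracr2b, at 34.4 to 96.4 times. Chil1 was the least even of them, at 1561, 117, 2255 and 1491 CPM in the 4 pools, and a single cell gave 45.6% of its reads in WT day 3 and 61.1% in WT day 5.

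Genes of cartilage matrix were present in part. Of 17 genes on the list that had enough reads for the comparison, 10 were higher than in the other Pdgfra cells in all 4 pools and 0 were lower in all 4, beside 13.5% and 18.2% of all 17732 genes. Col11a1, a minor fibril collagen of cartilage, was read at 405, 473, 385 and 356 CPM against 16.5, 15.2, 9.81 and 14.2 CPM in the other Pdgfra cells. Comp, the pentameric matrix protein of cartilage and tendon, was read at 516, 600.2, 728 and 581 CPM against 31.6, 27.1, 20.5 and 49.9 CPM. Matrilin-4 (Matn4), Col11a2, Ucma and Cnmd were also higher in every pool, and Ucma, a secreted protein of cartilage, had 93.8, 189.6, 100.1 and 70.9 CPM against at most 0.152 CPM. The core products of the chondrocyte were weak or missing. Col2a1, the main collagen of cartilage, was read at 47.2, 53.9, 135 and 53.4 CPM, higher than in the other Pdgfra cells in every pool. It was read in 19.7% of the 310 cells deep enough to be thinned to 10000 reads each. Acan, the gene of aggrecan, stood at 1.48, 0, 10.5 and 7.65 CPM, Col9a1 at 0, 0, 14.1 and 1.25 CPM, and Col10a1, the marker of hypertrophic cartilage, had no read in any pool. Hapln1, Snorc, Matn3, Col9a2 and Col9a3 were likewise below 25 CPM in every pool, and Matn1 and Clec3a were not analysed here. The regulators were mixed: Sox9 was read at 134, 253, 123 and 144 CPM against 47.4, 68.1, 31.7 and 38.3 CPM, and Sox5 was higher in every pool at lower levels, whereas Ihh had no read.

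Tendon genes were also present, 5 of 8 being higher than in the other Pdgfra cells in all 4 pools and 1 lower, beside 13.5% and 18.2% of all genes. Scleraxis (Scx) was read at 84.7, 148, 86.6 and 105 CPM against 0.850, 2.10, 1.22 and 2.02 CPM, and in 39.03% of thinned cells against 1.17% of other Pdgfra cells and 0.568% of Ptprc cells. Mkx, a homeobox regulator of tendon, was read at 31.6, 72.8, 29.9 and 52.4 CPM and the tendon membrane glycoprotein tenomodulin (Tnmd) at 337, 398, 363 and 315 CPM, against 195, 196, 102 and 60.2 CPM of Tnmd in the other Pdgfra cells. Thbs4, which encodes a thrombospondin of tendon and muscle matrix, reached 3085, 2914, 6349 and 10319.8 CPM against 359, 326, 265 and 445 CPM, and in both Ccr2-/- pools it was above both WT pools. Tppp3, which marks tendon sheath cells, was the gene of the list that was lower in all 4 pools (194, 221, 52.2 and 60.2 against 399, 345, 209 and 261 CPM). The cells therefore carried tendon regulators together with SOX9, and no cell type name beyond their leading genes is given to them here. The chondrocyte genes were divided: Acan, Col9a1, Hapln1 and Snorc were low, whereas Col2a1, Ucma and Cnmd were above the other Pdgfra cells in every pool. No perichondrial list was tested.

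**Figure D1:**
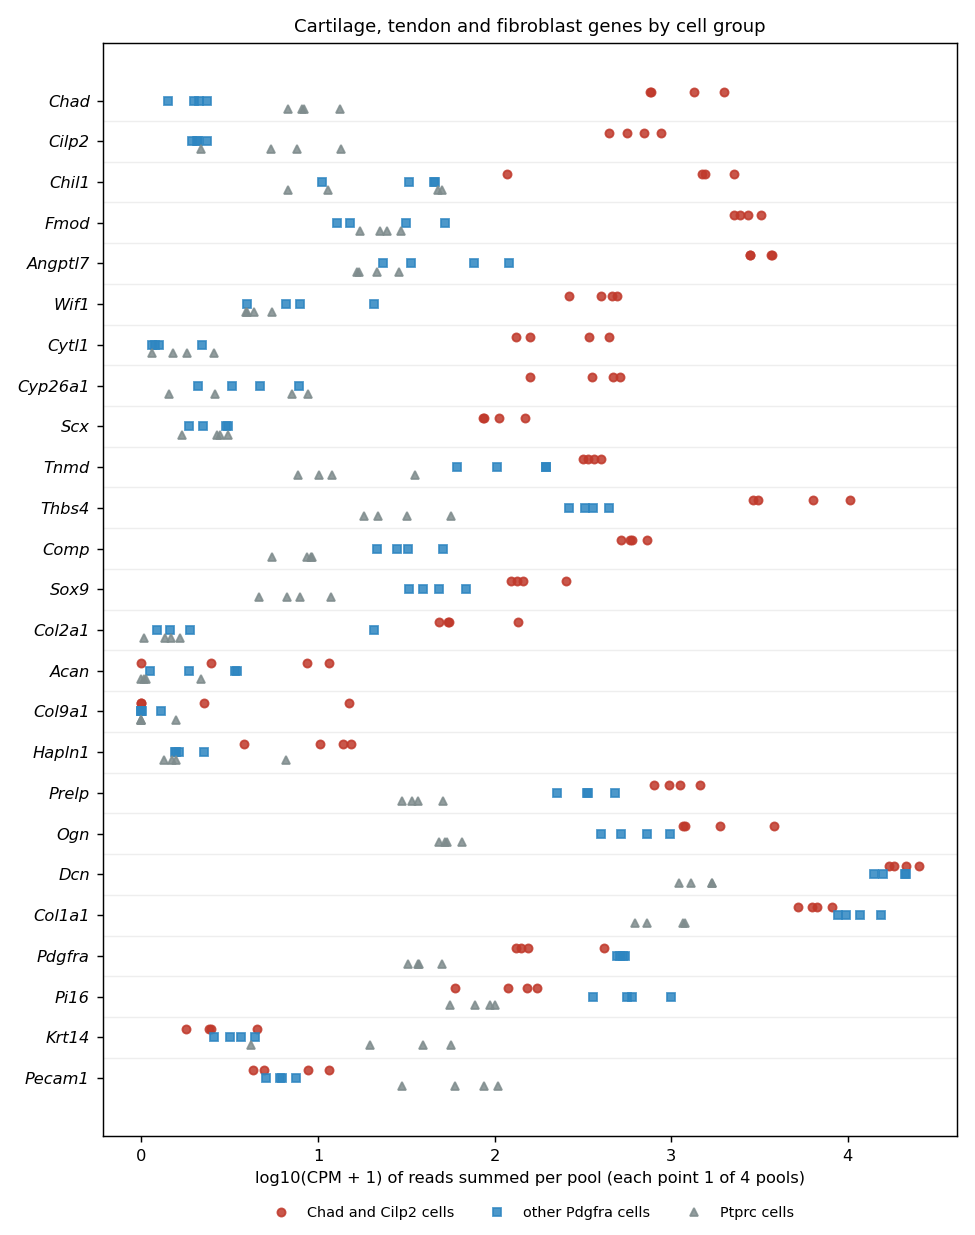
Summed reads per pool, as log10(CPM + 1), of matrix, lineage and marker genes (rows) in the Chad and Cilp2 cells, the other Pdgfra cells and the Ptprc cells; each point is 1 of the 4 pools. Fmod, Angptl7, Cytl1, Scx and Comp separate the Chad and Cilp2 cells from both other groups in every pool. Chad, Cilp2 and Pdgfra chose the cells, so their differences from the other Pdgfra cells are fixed by the choice. Acan and Col9a1 are low in the Chad and Cilp2 cells and highest there in Ccr2-/- day 3, and Col1a1, Pdgfra and Pi16 lie below the other Pdgfra cells.

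Small leucine-rich proteoglycans, which coat and space collagen fibrils, were higher in all 4 pools for 7 of 9 genes and lower for 0. Over all genes these shares were 13.5% and 18.2%. Osteoglycin (Ogn) was read at 1885, 3848, 1165 and 1190.2 CPM against 729, 985, 401 and 521 CPM, asporin (Aspn) at 2277, 3609.7, 1262 and 1587 CPM against 1158, 1620.2, 554 and 680.0 CPM, and Prelp at 1115, 1448, 796 and 975 CPM against 338, 226, 480.3 and 335 CPM. Decorin (Dcn), which fibroblasts of all kinds make, differed least, with 21380.2, 25193, 17047 and 18230.2 CPM against 21302, 21109, 15887 and 14160.1 CPM. Fibroblast genes went the other way, all 10 of 10 being lower than in the other Pdgfra cells in every pool, although Pdgfra itself chose that group and its difference is fixed by the choice. Col3a1 was read at 6228, 5199, 5516 and 4499.7 CPM against 19768, 22853, 17249 and 17414 CPM, and Dpt, the gene of dermatopontin, at 367, 404, 187 and 169.8 CPM against 1403, 2033, 887 and 806 CPM. Col1a1 differed less, at 0.607 of the other Pdgfra cells' level over all cells, and was read in 100% of thinned cells. The cells were therefore rich in collagen I reads and held less Pi16, Ly6a and Dpt than the other Pdgfra cells.

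Matrix regulators and growth factors divided: of 14 TGF-beta and BMP genes 5 were higher and 4 lower in all 4 pools, and of 10 Wnt genes 2 were higher and 3 lower, beside 13.5% and 18.2% of all genes. Timp3, a matrix-bound inhibitor of metalloproteinases and aggrecanases, was read at 5159.9, 6013, 4329 and 3899 CPM against 346, 565, 169 and 174 CPM. Ccn2 (connective tissue growth factor), a matricellular protein induced by TGF-beta and by load, was read at 2825, 2204, 3081 and 3298 CPM against 112, 75.1, 75.8 and 111 CPM. Both were at least 10.6 times the level of the other Pdgfra cells in each pool. Tgfb3 was read at 298, 529, 117 and 147 CPM, against 53.9, 79.8, 29.7 and 32.8 CPM, and Bmp2 at 63.5, 125, 86.7 and 76.5 CPM, against 13.9, 28.3, 10.3 and 10.8 CPM. Dkk3, a secreted relative of the Dickkopf Wnt antagonists, stood at 329, 288, 203 and 315 CPM against 38.5, 53.4, 15.9 and 30.5 CPM. Postn (periostin), which dermal fibroblasts secrete in inflamed skin, was lower in every pool, at 744, 649.9, 1182 and 943 CPM against 3334, 3796, 5064 and 4028 CPM.

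Markers of other cell types were low. Ptprc is among the leukocyte genes, and its limit chose these cells and the other Pdgfra cells, so its low level is fixed. The 6 leukocyte genes summed to 112, 179, 122 and 46.04 CPM, the 6 macrophage genes to 213, 344, 227 and 28.2 CPM and the 6 neutrophil genes to 66.2, 76.95, 155 and 269 CPM, against summed values of 45.7 to 107, 49.5 to 195 and 68.6 to 168 CPM in the other Pdgfra cells. The neutrophil genes were higher in both Ccr2-/- pools, in which the Ptprc cells also held the most S100a9 (539, 53.3, 3183 and 6584 CPM). Keratinocyte genes summed to 20.3 to 37.03 CPM, endothelial genes to 9.83 to 23.2 CPM, pericyte and smooth muscle genes to 37.1 to 72.1 CPM, Schwann cell genes to 13.6 to 47.9 CPM, skeletal muscle genes to 4.68 to 18.2 CPM and adipocyte genes to 40.7 to 129 CPM. The 6 genes that mark the group summed to 10072, 10172, 9291 and 8637 CPM, but Chad and Cilp2 are among them and chose the cells. Bone genes were scarce, with 2 of 6 at 0 in all 4 pools.

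The levels of several genes went together from cell to cell. Over 278 cells thinned to 20000 reads each, Thbs4 rose with Timp1 (Spearman's rho 0.46, with 0.19, 0.24, 0.44 and 0.62 in the pools), with Lox (0.42) and with Tnmd (0.39), and Chil1 rose with Cxcl14 (0.52, with 0.44, 0.53, 0.48 and 0.44 in the pools). Timp1 is the secreted metalloproteinase inhibitor that inflammatory cytokines induce, and Lox is the lysyl oxidase that cross-links collagen. Correlations with Chad are bounded by the choice of the cells on its reads and are given as values only. Chad had a rho of 0.47 with Cytl1 (0.63, 0.10, 0.46 and 0.41 in the pools), 0.43 with Wif1, -0.51 with Timp1 (-0.49, -0.24, -0.47 and -0.56) and -0.43 with Lox (-0.16, -0.54, -0.33 and -0.53). The values with Timp1 and Lox were negative in all 4 pools but weak in WT day 5 for Timp1 and in WT day 3 for Lox. These correlations describe cells that share 1 library and differ in depth. The total reads of a cell before thinning correlated with its thinned level of Chad at -0.42 and of Timp1 at 0.44. The part of depth in these correlations was not tested.

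Cytl1 and Ucma marked a smaller share of the cells. Of 310 cells thinned to 10000 reads, 70 had a read of Cytl1, 34 a read of Ucma and 18 both, so that Ucma was read in 25.7% of cells with Cytl1 and 6.67% of cells without. Thbs4 was read in 222 of the 310 cells, and Chil1 was read in 48.2% of those and in 20.5% of the rest. The tendon genes Scx and Tnmd did not go together in this way, Tnmd being read in 36.4% of cells with Scx and 31.2% of cells without (rho 0.00). Sox9 and Scx were both read in 48 cells, and Scx was as frequent among cells with Sox9 (39.02%) as among cells without it (39.04%).

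**Figure D2:**
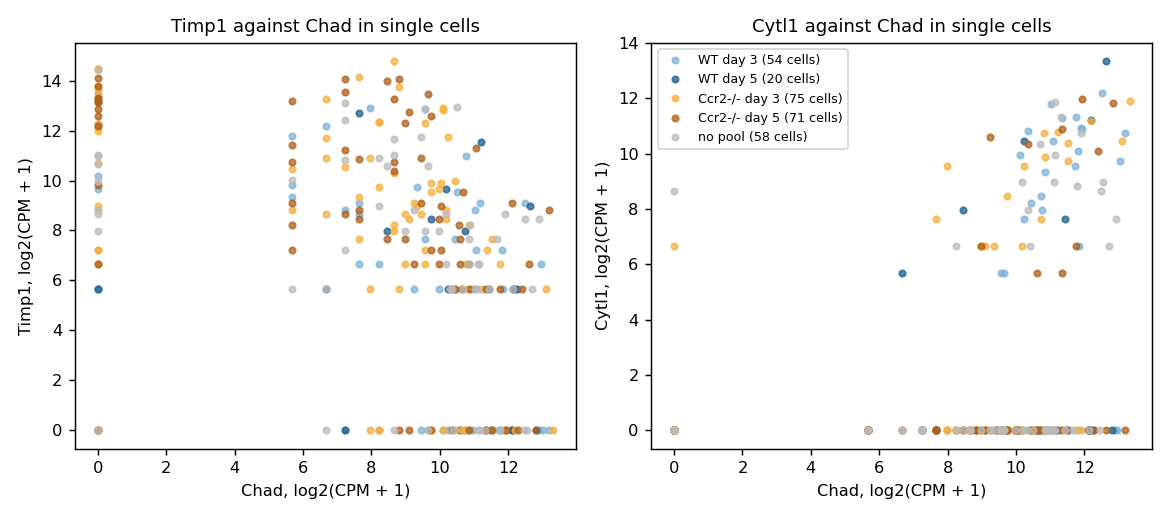
Single Chad and Cilp2 cells thinned to 20000 reads, with the level of Chad on the x axis and that of Timp1 (left) or Cytl1 (right) on the y axis, both as log2(CPM + 1); colours mark the pool. Reads of Chad also chose these cells. High Timp1 lies at low Chad (rho -0.51 over 278 cells), whereas the cells with Cytl1 lie mostly at high Chad (rho 0.47).

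The share of Chad and Cilp2 cells was examined next. They made up 4.09% of the cells in WT day 3 (63 of 1539, exact 95% interval 3.16 to 5.21%), 2.02% in WT day 5 (21 of 1041, 1.25 to 3.07%), 3.88% in Ccr2-/- day 3 (85 of 2188, 3.11 to 4.78%) and 3.44% in Ccr2-/- day 5 (82 of 2382, 2.75 to 4.26%). The interval of WT day 5 overlapped with that of Ccr2-/- day 5 but with neither day 3 pool, and these intervals cover counting error only. The mean share was 0.61 percentage points higher in the Ccr2-/- pools (3.66% against 3.06%), an exact two-sided permutation test of the 4 pools gave p = 1, and 2 pools against 2 cannot give less than 0.33. Without WT day 5 the difference changed sign to -0.43 points. Among cells under the Ptprc limit, the shares were 7.46, 3.72, 6.08 and 6.25%. Leukocyte barcodes without a Ptprc read pass this limit, and how many entered the denominator was not tested. The density gradient and the hashtag antibodies, of which only the one against MHC class I binds cells without CD45, also bear on these shares.

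**Figure D3:**
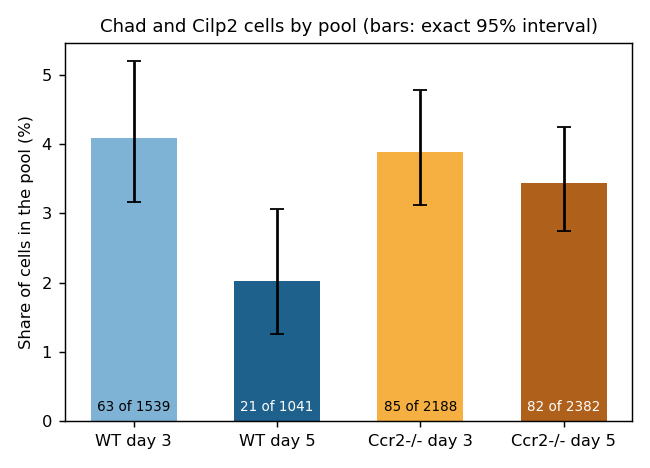
Share of Chad and Cilp2 cells among all cells of each hashtag pool (y axis, percent) with exact 95% intervals and the numbers of cells. WT day 5 has the lowest share, 2.02%, and the other 3 pools lie between 3.44 and 4.09%.

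The inflammatory response of the cells was then compared with that of the other Pdgfra cells of the same pools. Most inflammatory genes were lower in the Chad and Cilp2 cells: of the genes compared, 5 of 6 neutrophil chemoattractants, 8 of 14 other chemokines and cytokines, 11 of 16 IL-1, TNF and NF-kB genes, 6 of 6 prostaglandin and hyaluronan genes and 4 of 11 acute-phase genes were lower in all 4 pools, beside 18.2% of all genes, and 0 of them were higher in all 4. Cxcl1, a chemokine that attracts neutrophils through CXCR2, was read at 375, 655, 1149 and 1141 CPM against 2344, 2232, 2969 and 2575 CPM, and Cxcl5, of the same family, at 38.3, 36.4, 134 and 349 CPM against 918, 435, 2862 and 2417 CPM. The monocyte chemoattractant Ccl2 was read at 598, 374, 1375 and 1785 CPM against 2221, 1795, 4481 and 3140 CPM, and Il6 at 117, 136, 207 and 104 CPM against 708, 359.8, 711 and 588 CPM. In each of these genes the Chad and Cilp2 cells were below the other Pdgfra cells of their own pool. The eotaxin gene Ccl11 (23.7, 135, 213 and 18.7 against 728, 476, 2473 and 1418 CPM), the alarmin gene Il33 (44.2, 27.3, 69.7 and 27.6 against 404, 162, 484 and 309.8 CPM) and the homeostatic chemokine gene Cxcl12 (199, 163, 152 and 50.7 against 1122, 1107, 1414 and 1259.8 CPM) showed wider gaps. The receptor Il1r1, through which IL-1 acts on stroma, stood at 66.4, 91.6, 101.2 and 96.6 CPM against 294, 199.6, 419 and 354 CPM.

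The acute-phase gene Saa3 set 1 pool apart. It was read at 58.8, 53.2, 2024 and 53.8 CPM in the Chad and Cilp2 cells and at 2878, 776, 4112 and 7421 CPM in the other Pdgfra cells. Only Ccr2-/- day 3 was high, and 1 cell gave 49.1% of its reads there (1067 CPM without that cell). A Saa3 read was found in 38.4% of thinned cells and in a similar share, 39.5%, of thinned Ptprc cells. The level of stray reads was not measured, so these shares do not tell stray reads from expression. Other acute-phase and iron-handling genes were also highest in Ccr2-/- day 3, with Lcn2 at 19.01, 2.10, 127 and 52.6 CPM, Steap4 at 56.8, 21.7, 264 and 93.8 CPM and the complement gene C3 at 232, 220.4, 647 and 206 CPM. Hp, the gene of haptoglobin, stayed at 3.46, 6.30, 6.40 and 5.77 CPM, while the other Pdgfra cells of Ccr2-/- day 5 had 573 CPM.

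Some secreted products were not lower than in the other Pdgfra cells. Cxcl14, a chemokine made in skin epithelium and stroma, was read at 1595, 269, 2193 and 2677 CPM against 1125, 410.3, 881 and 1040.2 CPM, higher in 3 pools and lower in WT day 5, and in 70% of thinned cells against 13.02% of Ptprc cells. Timp1 was read at 1639, 1002, 4529 and 5437 CPM against 1845, 1158, 3702 and 3385 CPM, above the other Pdgfra cells in both Ccr2-/- pools and below them in both WT pools. The feedback inhibitor Socs3 (778, 1059.8, 895 and 686 CPM) and the adhesion molecule gene Icam1 (143, 248, 227 and 189 CPM) were at similar levels in both groups, at 1.08 and 0.981 times over all cells. Matrix proteases divided: 6 of 11 protease and inhibitor genes were lower in all 4 pools, among them Mmp3 (69.9, 32.9, 115 and 90.2 against 749.7, 539, 653 and 756 CPM) and the aggrecanase genes Adamts4 and Adamts5, and 2 were higher, Timp2 and Timp3. Over all genes, 13.5% were higher and 18.2% lower in all 4 pools. Interferon-response genes were near these shares, with 1 of 12 higher and 2 lower. Of 10 type 2 cytokine response genes 0 were higher and 5 lower, among them Il4ra (93.3, 76.95, 140.2 and 185 against 202, 133, 284 and 334 CPM). All 6 of 6 cell division genes were lower, Mki67 standing at 12.1, 35.7, 18.3 and 54.5 CPM against 59.8, 44.1, 65.1 and 92.8 CPM. Genes induced by tissue dissociation were as high as in other stroma or higher (4 of 10 higher and 1 lower in all 4 pools), Fos at 7045, 7626, 6810.1 and 5424 CPM against 6197, 6070.3, 4316 and 3608 CPM, and their part in these differences was not tested.

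**Figure D4:**
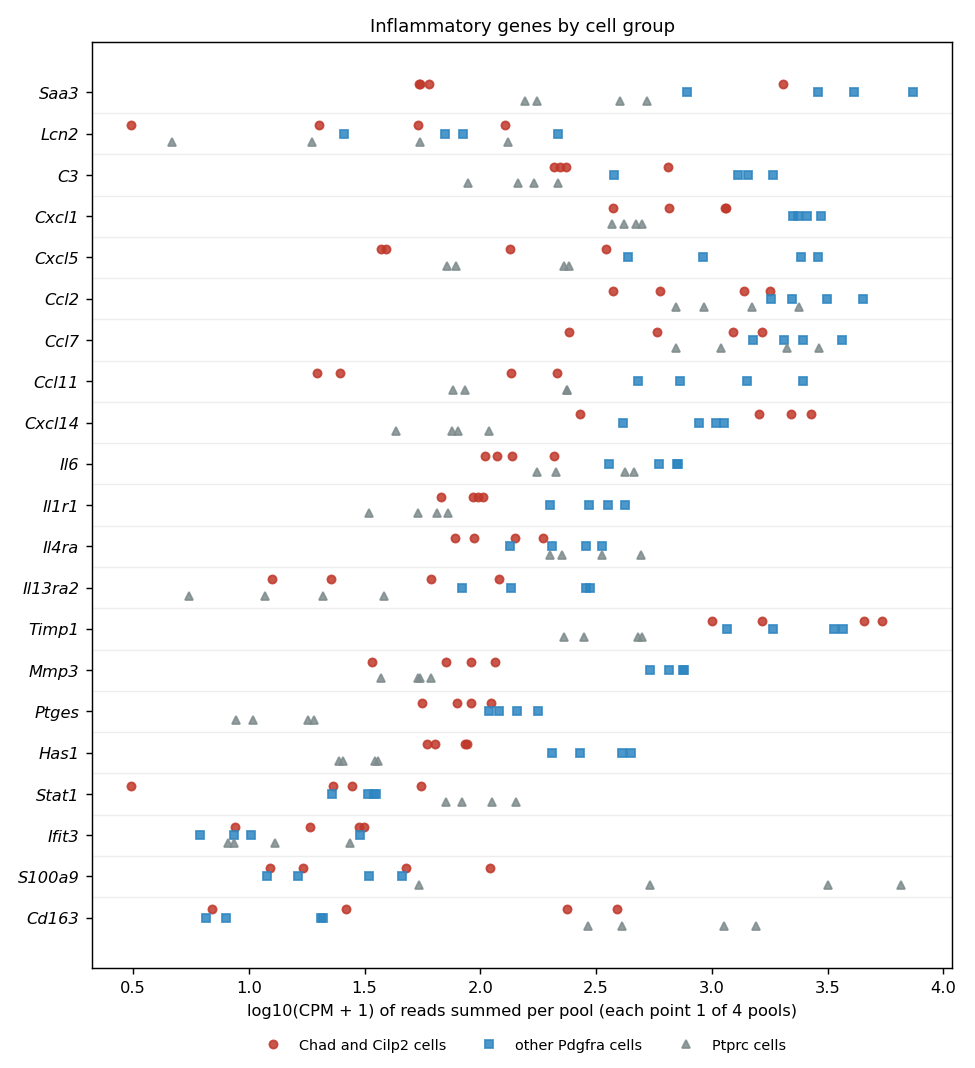
Summed reads per pool, as log10(CPM + 1), of inflammatory genes (rows) in the Chad and Cilp2 cells, the other Pdgfra cells and the Ptprc cells; each point is 1 of the 4 pools. Cxcl5, Ccl11, Il6, Il1r1, Mmp3 and Has1 lie below the other Pdgfra cells in every pool, Saa3 is high in 1 pool of the Chad and Cilp2 cells, Cxcl14 is the chemokine that mostly lies above, and for Timp1 both groups overlap.

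The genotypes were compared with edgeR's quasi-likelihood test on the reads summed per pool, with day as a term, so that the 2 pools of each genotype served as replicates with 1 residual degree of freedom. Of 13597 genes, 1 passed an adjusted p of 0.05 (0.00735%), and 832 had an unadjusted p below 0.05. The gene was Rarres2, which encodes the chemoattractant chemerin (chr6:48569696-48572789, minus strand). It was read at 1230.0, 518, 164 and 74.4 CPM, lower in both Ccr2-/- pools, with a log2 difference (Ccr2-/- minus WT) of -2.86 (SE 0.23, adjusted p = 0.0156). A single cell gave 89.1% of its reads in WT day 3 and another 53.4% in WT day 5. Without the highest cell of each pool the levels were 152, 265, 99.6 and 60.5 CPM, and the log2 difference of -1.52 no longer passed (adjusted p = 0.251), so that the call rests on the highest cells. The threshold was also not passed with either WT pool left out, at an adjusted p of 0.0888 without WT day 3 and 0.183 without WT day 5, and at a Chad and Cilp2 limit of 500 CPM the log2 difference was 0.22 (adjusted p = 0.999).

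The 9 genes of next smallest p that moved the same way on both days did not pass, with adjusted p of 0.139 to 0.14, and are described by their values. Timp1 was read at 1639, 1002, 4529 and 5437 CPM and had a log2 difference of 1.95 (SE 0.24, adjusted p = 0.139). Both Ccr2-/- pools were above both WT pools, and 1 cell gave 69.9% of the reads in WT day 5. The median cell held 62.8, 33.8, 386 and 383 CPM of Timp1, and a read was found in 51.7, 47.6, 75.9 and 75.3% of thinned cells, so that the difference was present in the typical cell as well as in the sum. Ccl7, a ligand of CCR2, was read at 576, 239.9, 1639 and 1229 CPM with a log2 difference of 1.92 (SE 0.25, adjusted p = 0.139), and without the highest cells it was read at 185, 164, 1206 and 871 CPM. In this gene the share of thinned cells with a read was 36.2, 52.4, 39.2 and 41.6%, the Ccr2-/- pools lying between the WT pools. Thbs4 (chr13:92751590-92794818, minus strand) was read at 3085, 2914, 6349 and 10319.8 CPM with a log2 difference of 1.43 (SE 0.21, adjusted p = 0.139) and a median cell at 64.03, 889, 1481 and 2563 CPM. Lox was read at 1299, 1063, 2827 and 3108 CPM with a log2 difference of 1.33 (SE 0.19, adjusted p = 0.139) and a median cell at 646, 471, 1099 and 1331 CPM. In all 3 of Timp1, Thbs4 and Lox, both Ccr2-/- pools had the higher median cell. Steap4, a metalloreductase of inflamed tissue, had a log2 difference of 2.17 (SE 0.31, adjusted p = 0.139).

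Among the genes lower in the Ccr2-/- pools, Bhmt, an enzyme of methionine synthesis, was read at 52.1, 212, 1.56 and 28.7 CPM (log2 difference -3.78, SE 0.54, adjusted p = 0.139), and Scara5, a ferritin receptor of resting fibroblasts, at 106, 186, 25.7 and 27.8 CPM (log2 difference -2.39, SE 0.35, adjusted p = 0.139). Efemp1, the gene of fibulin-3, was read at 224, 125, 43.4 and 7.18 CPM (log2 difference -3.19, SE 0.47, adjusted p = 0.139), and 1 cell gave 76.2% of the reads in WT day 3 and 58.1% in WT day 5. Cd163, a haemoglobin scavenger receptor of resident macrophages, was read at 235, 389.6, 25.3 and 5.93 CPM (log2 difference -4.54, SE 0.65, adjusted p = 0.139), and single cells gave 98.5% and 99.1% of its WT reads. Most WT reads of Cd163 and Efemp1 therefore came from 1 cell in each pool, whereas Bhmt and Scara5 were read in 12.1, 28.6, 6.33 and 6.49% and 20.7, 28.6, 6.33 and 11.7% of thinned cells, more often in both WT pools.

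Since single cells and unequal depths weighed on these sums, 2 alternatives were added after the values were seen. Leaving out the highest cell of each pool for every gene, edgeR called 9 genes: Ccl7, Thbs4, Ccl2 and Lox higher in the Ccr2-/- pools, and Bhmt, Scara5, Cytl1, Mfap4 and Chad lower. Chad is in this count because the fit ran over all genes, but its reads chose the cells and its call is not used as a result. With cells thinned to 10000 reads, it called 43 genes, Chad again among them, which included all 9 of those and 9 of the 10 genes described above. Shallower cells (29 of the 339, with or without a pool) were left out of the thinned fits. The pools then held 58, 21, 79 and 77 cells, so membership changed along with depth. With thinned cells the log2 difference was 2.0 (adjusted p = 6.80e-08) for Timp1, 1.19 (adjusted p = 4.72e-06) for Thbs4, -1.64 (adjusted p = 0.000153) for Cytl1 and -1.10 (adjusted p = 0.000948) for Mfap4. Further genes called with thinned cells included the proteoglycan genes Ogn (log2 difference -1.02, adjusted p = 0.000979) and Aspn (log2 difference -0.86, adjusted p = 0.00258), the growth factor gene Tgfb3 (log2 difference -1.51, adjusted p = 0.00315) and the chemokine gene Cxcl14 (log2 difference 1.46, adjusted p = 0.0119). The 43 also held genes of neutrophils, S100a8, S100a9, Il1b and Stfa2l1, all higher in the Ccr2-/- pools, where neutrophil reads were more abundant in the Ptprc cells, and the part of such reads in the other calls was not tested.

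Cytl1 (chr5:37735519-37739820, plus strand) was read at 339.7, 445, 159 and 131 CPM and in 34.5, 28.6, 20.3 and 12.99% of thinned cells. Mfap4, which encodes a microfibril-associated protein of elastic fibres, was read at 1006, 1920.3, 522 and 615 CPM with a median cell at 831, 1641, 386 and 346 CPM, and Tgfb3 had a median cell at 147, 331, 18.2 and 20.3 CPM. Both WT pools were above both Ccr2-/- pools for each of these 3 genes. Chad, too, had a lower median cell in the Ccr2-/- pools (1143, 2332, 442 and 481 CPM), but it chose the cells, and the median of Chad and Cilp2 together was 1955, 3128, 1132 and 1083 CPM. The WT pools therefore held cells with more of the selecting genes, and how far this mix bears on the genotype values was not tested.

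**Figure D5:**
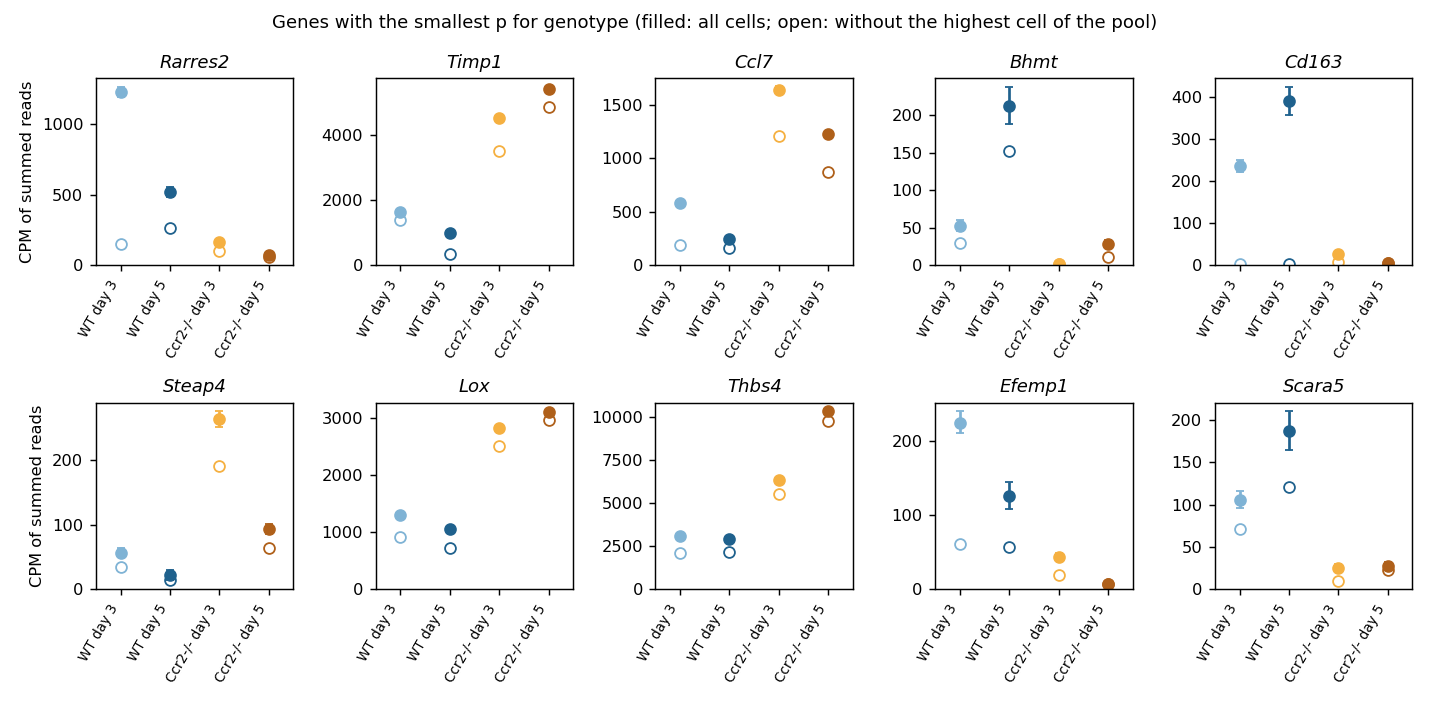
CPM of reads summed per pool (y axis) in the 4 pools (x axis) for the 10 genes of smallest p for genotype; filled points use all Chad and Cilp2 cells, with exact 95% counting intervals that are often smaller than the point, and open points leave out the cell with the most reads of the gene. Without that cell the WT values of Rarres2, Cd163 and Efemp1 fall towards the Ccr2-/- values, whereas Thbs4, Lox and Timp1 keep the Ccr2-/- pools above the WT pools.

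By gene list, 0 genes of any list passed the genotype test, and groups are described by the genes whose 2 Ccr2-/- pools lay both above or both below the 2 WT pools, which 21.6% (above) and 17.7% (below) of all 13597 genes did. Of 7 acute-phase genes, 4 lay above and 0 below (median log2 difference 2.17), namely Lcn2, Steap4 and the neutrophil-abundant S100a8 and S100a9. Of 4 neutrophil chemoattractant genes, Cxcl1 and Cxcl5 lay above (median 1.78), and of 12 other chemokines and cytokines 5 lay above, Ccl2, Ccl7, Cxcl14, Csf1 and Tslp, and 2 below, Cxcl12 and Il11. Over all genes the median log2 difference was 0.08. Of 10 type 2 response genes, 5 lay above and 1 below, and the decoy receptor gene Il13ra2 was read at 11.6, 21.7, 60.1 and 119.9 CPM (log2 difference 2.41, SE 0.39, adjusted p = 0.162). Of 9 small leucine-rich proteoglycan genes, 0 lay above and 5 below, which were Dcn, Prelp, Ogn, Aspn and Ecm2, and Aspn had a log2 difference of -1.02 (SE 0.19, adjusted p = 0.264). Of 15 cartilage matrix genes, 2 lay above and 3 below (median -0.02), of 8 tendon genes 2 lay above and 2 below, of 10 fibroblast genes 0 above and 4 below, and of 10 dissociation genes 0 above and 7 below. Of 16 IL-1, TNF and NF-kB genes 4 lay above and 1 below, of 10 protease and inhibitor genes 4 and 3, of 11 interferon-response genes 2 and 2, and of 11 TGF-beta and BMP genes 3 and 1.

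For day, 0 of 13597 genes passed the same test (0%), and 360 had an unadjusted p below 0.05. The smallest p belonged to Kera, the gene of the proteoglycan keratocan of cornea and tendon. Kera was read at 13.3, 148, 10.2 and 85.4 CPM, higher on day 5 in both genotypes, with a log2 difference (day 5 minus day 3) of 3.27 (SE 0.38, adjusted p = 0.257), and in 8.62, 19.05, 5.06 and 10.4% of thinned cells. Prg4, which encodes lubricin, the lubricant of joint and tendon surfaces, was read at 175, 414, 94.1 and 438 CPM (log2 difference 1.74, SE 0.30, adjusted p = 0.892), and 1 cell gave 74.5% of the reads in WT day 5. Eln, the gene of elastin, was read at 274, 579, 93.1 and 228 CPM (log2 difference 1.19, SE 0.24, adjusted p = 1). All 3 were higher on day 5 in both genotypes but did not pass. The other 7 genes of smallest p for day were Ccl24, Cyp4b1, Trf, Bhmt, Rarres2, Stmn2 and Ifitm1, with adjusted p of 0.547 to 1. With cells thinned to 10000 reads, 12 genes passed, with Prg4 (log2 difference 2.22, adjusted p = 0.000544), Kera (log2 difference 3.05, adjusted p = 0.00202) and Eln (log2 difference 1.58, adjusted p = 0.00175) higher on day 5 and Chil1 (log2 difference -2.08, adjusted p = 0.00151) and Saa3 (log2 difference -2.76, adjusted p = 0.0176) lower. In the unthinned sums, the day 5 level of Saa3 was 0.90 times that of day 3 in WT and 0.027 times in Ccr2-/-. For Chil1 it was 0.075 times in WT and 0.66 times in Ccr2-/-. Single cells gave much of the reads of both genes, as described above, and their part in these calls was not tested. Both day 5 pools lay above both day 3 pools for 13.7% of all genes and below for 16.5%, and of 8 tendon genes 3 lay above, Scx, Mkx and Kera, and 0 below.

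Whether the genotype difference in the Chad and Cilp2 cells departed from that in the other Pdgfra cells was tested as an interaction over both cell groups of the same pools. Of 17732 genes, 0 passed (0%), 822 had an unadjusted p below 0.05, and the smallest adjusted p was 0.292. The gene was Thbs4, whose level was 2.06 times as high in Ccr2-/- as in WT cells on day 3 and 3.54 times on day 5, against 0.737 and 1.37 times in the other Pdgfra cells, and the difference of the log2 differences was 1.42 (SE 0.16, adjusted p = 0.292). C3 was 2.79 and 0.936 times as high against 0.783 and 0.291 times (log2 difference 1.76, SE 0.23, adjusted p = 0.416), and Angptl7 had a difference of 1.40 (SE 0.28, adjusted p = 1). The other genes among the 10 of smallest p were Reg1, Rarres2, Tnfaip8l3, Khdrbs3, Cd163, Mt2 and Ccnb2. Timp1 was 2.76 and 5.43 times as high in Ccr2-/- cells, against 2.01 and 2.92 times in the other Pdgfra cells, and Ccl7 2.84 and 5.12 times against 1.78 and 1.65 times. Both cell groups thus had higher Timp1 and Ccl7 in the Ccr2-/- pools on both days, and neither gene was shown to differ between them (adjusted p = 1 and 1). With thinned cells the interaction passed for 5 genes, Rarres2, Angptl7, C3, Epas1 and Apoe.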

How the data were processed

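The deposited matrix holds counts of reads per gene and cell barcode, which the authors made from cDNA reads trimmed with Cutadapt and aligned with Bowtie2 to Ensembl transcripts of GRCm38.p6, keeping barcodes above the inflection of the rank curve. They are reads, not molecules, so intervals cover counting error only. The deposited hashtag table holds counts of hashtag reads, and 9 of its columns match no sample of this series and were not used. A barcode was given to a pool when its highest hashtag count, divided by the column total, was at least 3 times the next, with at least 10 hashtag reads. One barcode held 29.7% of a hashtag column. In their analysis the authors removed doublets by hashtag, and here barcodes with several hashtags entered no pool. Reads were summed per pool and tested with edgeR 4.0.16 (R 4.3.3; TMM, filterByExpr, quasi-likelihood, Benjamini-Hochberg over all genes, adjusted p of 0.05), and standard errors were derived from the F statistic. The number of animals in each of the 4 pools is not known, and no pool shares both genotype and day with another. The genotype and day tests take as spread the departure from additive effects, moderated over genes. The p-values therefore hold for 1 experiment and do not measure the spread between like pools or between animals. The scripts were tested on simulated counts. Named genes were list members and the 15 of highest ratio, plus the 10 of smallest p with 1 direction in both pairs of pools where fewer than 10 passed. Members and gene lists were chosen with earlier results of these data known. Gene positions are from GENCODE M21. Alternatives are listed in the closing section.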

Additional observations from a re-analysis of the deposited data

How the results depend on the processing

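The genotype test called 1 gene as reported, 0 with the Chad and Cilp2 limit at 50 CPM, with no Ptprc read allowed, with a 10% mitochondrial limit, with at least 20000 reads per cell, with hashtag totals taken without the barcode of most reads or with no term for day, 5 at 500 CPM, 79 with DESeq2, 131 with no filter on low counts, 9 without the highest cell of each gene, 43 with thinned cells, and 1 to 35 when 1 pool was left out (13 without WT day 3, 26 without Ccr2-/- day 3 and 35 without Ccr2-/- day 5). The day test called 0 as reported, 1 at 500 CPM, 10 with DESeq2, 31 with no filter, 12 with thinned cells and 0 to 7 with 1 pool left out. The interaction called 0 as reported, 2 at 50 CPM, 20 with DESeq2, 94 with no filter, 5 with thinned cells and 0 to 41 with 1 pool left out, the most without Ccr2-/- day 3 or Ccr2-/- day 5 (36). Fits without 1 pool assume that the lone pool of a genotype or day varies like the others. The difference in share was -0.43 to 1.65 points with 1 pool left out, and turned negative without WT day 5. With at least 20000 reads per cell it was 2.23 points (exact permutation p = 0.333). With no Ptprc read allowed it was 0.045 points, and -0.27 points among cells under the Ptprc limit. Log2 values that changed sign were, at 500 CPM, 0.22 (Rarres2) and 0.73 (Efemp1) for genotype, 0.87 (Ifitm1) for day, and 0.26 (Reg1), 0.089 (Rarres2) and 0.57 (Ccnb2) for the interaction. Without the highest cells they were Cd163 for genotype (0.48) and interaction (2.096) and Rarres2 for day (0.25). Rarres2 for day was also 1.14 with no Ptprc read, 0.70 at a hashtag ratio of 10, 0.18 with thinned cells, and -3.22 to 0.86 with 1 pool left out. The other named genes kept their direction in these settings. The cause of these changes was not tested. Library sizes in place of TMM left the median log2 genotype difference of all genes at 0.08. The pools held 21 to 85 of the cells, the fewest in WT day 5. The genotype test held day as a term and the interaction held the pool, as reported. Beyond that, no paired analysis was possible because the labels give no shared replicate numbers.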

Other observations

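Genes of Wnt signalling and of BMP antagonism were also unevenly present in the Chad and Cilp2 cells. The secreted Wnt modulator gene Sfrp2 was read at 501, 725, 354 and 299.8 CPM in the pools, given in the same order as above, against 139, 176, 120.0 and 259 CPM in the other Pdgfra cells, and Chrdl1, which encodes a chordin-like BMP antagonist, at 143, 181, 90.7 and 149 CPM against 72.3, 58.3, 64.1 and 43.6 CPM. Both were higher in all 4 pools. Sfrp4, a further member of the Sfrp family, was read at 11.1, 1.40, 16.9 and 2.81 CPM against 102, 122, 143 and 122 CPM, and Gdf10, a BMP-related ligand, at 2.47, 0.700, 0.427 and 0.312 CPM against 30.1, 60.4, 15.7 and 13.4 CPM, lower in all 4 pools. The joint-forming ligand Gdf5 was read at 3.70, 14.7, 5.54 and 19.2 CPM, and in 4.19% of thinned cells against 0.0866% of the other Pdgfra cells. These genes come from lists that were fixed with earlier results known, the comparison is a description, and no test was run on it.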
